A study of Mus musculus with 4 samples.

Results

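The clustered protocadherin genes are described here through the Wapal-binding sites found at them in mouse embryonic stem cells (ESCs). The members are the genes on chromosome 18 whose symbol begins with Pcdha, Pcdhb or Pcdhg in the GENCODE M1 annotation of mm9, and they number 25 of 37310 annotated genes. They comprise 2 Pcdha genes, 22 Pcdhb genes and 1 Pcdhg gene, which together spanned positions 37089939 to 38001527 of chromosome 18 (mm9). The regions between the clusters and 300 kb beyond either end were included.

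Wapal was tagged with Flag and biotin acceptor sequences (FB Wapal) and expressed in ESCs with the bacterial ligase BirA, which biotinylates the tag so that streptavidin recovers the protein with its DNA. The libraries were 2 FB Wapal clones, 1 line expressing BirA without tagged Wapal, and 1 input of sheared genomic DNA from cells labelled as expressing the tagged protein. All cells were grown in standard ESC conditions, and the labels name no further treatment. The lists hold no expression values, so the identity of the cells could not be checked against markers. The clones were derived independently and carry a tagged copy beside the endogenous protein. The deposited regions of both were joined in 1 list, so clones could not be compared and no value here has a spread between replicates. No test between groups was therefore possible, and all values are descriptions of that list. FB Wapal regions that touched a BirA region by 1 bp or more were discarded, which left 8323 Wapal-binding sites on chromosomes 1 to 19, X and Y. The study reports a slightly lower number after its own subtraction, and the difference was not traced. No BirA region lay in the protocadherin clusters or the 300 kb on either side, and the nearest was 18836 kb away. The lists give a position and a MACS score for each region, which is the negative log10 of its p-value against input multiplied by 10, but no read counts, so the depth behind a single site is unknown.

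Wapal is a cohesin-associated protein that releases the cohesin ring from chromatin. Clustered protocadherins are adhesion proteins of the nervous system, and single neurons differ in which of them they express through a choice among many alternative promoters. In the Pcdha and Pcdhg clusters each promoter stands before its own large variable exon, which is spliced to constant exons at the end of the cluster, whereas each Pcdhb gene has a single coding exon. Most of the promoters carry a short conserved sequence element, and CTCF and cohesin are known to bind promoters and distal enhancers of the clusters and to bring them together. The last variable exons of the Pcdha and Pcdhg clusters, known as C-type, differ from the others in sequence and regulation.

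Of the 25 clustered protocadherin genes, 12 (48.0%) had a transcription start site (TSS) no more than 2 kb from a Wapal-binding site. Over all genes tested the share was 2.85%, and over protein-coding genes it was 3.3%. The same 12 genes had a site over the first exon of a transcript, where the share over all genes was 0.979%. They were Pcdha11, Pcdhgc5 and 10 Pcdhb genes, namely Pcdhb2, Pcdhb8, Pcdhb10, Pcdhb11, Pcdhb13, Pcdhb16, Pcdhb17, Pcdhb19, Pcdhb20 and Pcdhb21. Pcdhb20 is annotated as a pseudogene in this release, and the others as protein-coding. The 13 genes without such a site were Pcdha3 and 12 Pcdhb genes, whose nearest sites lay between 3.91 kb (Pcdhb15) and 29.3 kb (Pcdhb1) from a TSS.

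The annotation gathers 10 transcripts under the symbol Pcdha11 and 10 under Pcdhgc5, so a count of genes hides most Pcdha and Pcdhg promoters. Of the 10 Pcdha11 transcripts 5 started within 2 kb of a site, and of the 10 Pcdhgc5 transcripts 3 did. Across all members the number was 19 of 47 transcripts. The share over all annotated transcripts was not counted, and the shares over all genes given above are per gene. To see every variable exon, open reading frames of 2200 to 2700 bases on the forward strand were located in the mm9 sequence of the clusters. The search found 59, and 1 frame between Pcdhb genes that shared no 16-base word with any other frame was left out. The remaining 58 frames comprised 14 in Pcdha, 22 in Pcdhb and 22 in Pcdhg, the same numbers of genes that RefSeq names in each cluster. All 22 Pcdhb frames lay in the 22 annotated Pcdhb genes. Annotated exons covered 10 of the 14 Pcdha frames and 9 of the 22 Pcdhg frames, and the rest had no exon in this release. Frames are numbered below from the first to the last in each cluster, since the annotation does not pair Pcdha and Pcdhg frames with isoform names.

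Wapal-binding sites lay over the start codon of 24 of the 58 frames (41.4%), and no other frame start had a site within 1 kb. Over all annotated coding starts the share with a site within 1 kb was 1.08%. The occupied frames were 7 of 14 in Pcdha, 10 of 22 in Pcdhb and 7 of 22 in Pcdhg. Each of the 24 sites covered a single frame start, and no site within the 3 clusters lay elsewhere than at a frame start. In Pcdha the frames with a site were 1, 6, 7, 9, 10, 11 and 12. In Pcdhg they were 10, 12, 14, 16, 17, 18 and 19, in the later part of the cluster.

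**Figure D1:**
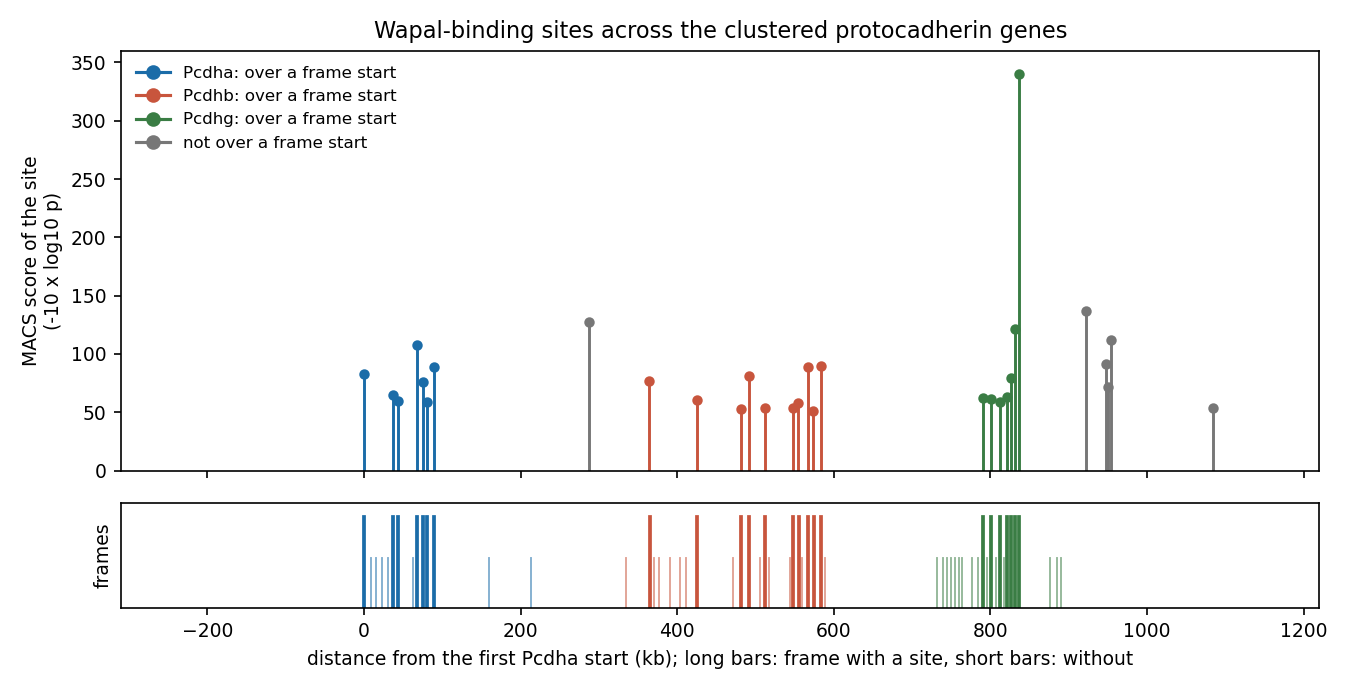
Wapal-binding sites from 300 kb before the first Pcdha start to 300 kb beyond the last Pcdhg exon, with the distance from the first Pcdha start in kb on the horizontal axis. The upper panel shows the MACS score of each of 30 sites and the lower panel the 58 reading frames, where long bars mark the 24 frames with a site and short bars the 34 without. The 24 sites over frame starts fall into 3 groups that match the clusters, with a score of 340 at the end of the Pcdhg group. The other 6 sites lie between Pcdha and Pcdhb (1) and downstream of Pcdhg (5), and none in the 300 kb before Pcdha.

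Many of the unoccupied frames stood in runs along the clusters, and others stood alone between occupied frames. In Pcdha, frames 2 to 5 and 8 had no site, and neither did the last 2 frames, which stand at the position of the C-type exons. Those last frames lay 69.7 kb (frame 13) and 73.1 kb (frame 14) from the nearest site. In Pcdhg, frames 1 to 9 had no site, and the nearest site was 58.0 kb from frame 1 and 4.96 kb from frame 9. Among the frames that followed, 11, 13 and 15 had none while their neighbors on both sides did. The last 3 Pcdhg frames, also at the position of C-type exons, were 39.9, 36.1 and 31.9 kb from the nearest site. The first and last Pcdhb genes, Pcdhb1 and Pcdhb22, had no site either, and the site nearest to Pcdhb22 was 4.47 kb from its TSS, at Pcdhb21.

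Several stretches of the region held no site. The longest, of 403.6 kb, ended at the site over the first Pcdha frame, and held 17 protein-coding genes that include Hars and Hars2, the cytoplasmic and mitochondrial histidyl-tRNA synthetases. The next, of 206.0 kb, ran from Pcdhb21 to Pcdhg frame 10 and held Pcdhb22, Slc25a2, Taf7, 3222401L13Rik and the first 9 Pcdhg frames. Taf7 encodes a subunit of the general transcription factor TFIID and Slc25a2 a mitochondrial carrier. A further empty stretch of 196.7 kb contained the last 2 Pcdha frames and the constant Pcdha exons.

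In the Pcdha cluster, the 7 sites had scores from 58.5 to 108 with a median of 76.2. The site over frame 1 covered 37089500 to 37090169 and had a score of 82.7. Frames 6 and 7, which no annotated transcript starts at, had sites with scores of 64.6 and 59.5. The site over frame 9 (37157027 to 37157822) had the highest score in this cluster, 108. Frames 10, 11 and 12 followed and had scores of 76.2, 58.5 and 88.9. The sites over frames 11 and 12 also lay within Gm10545, a gene annotated over part of the cluster.

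In the Pcdhb cluster, the 10 sites had the lowest median score of the 3 clusters, 59.0, and none reached 100. The highest were 89.9 at Pcdhb21 (37672878 to 37673535), 88.5 at Pcdhb19 (37656251 to 37657108) and 80.9 at Pcdhb11 (37580826 to 37581443). Pcdhb2 followed with 76.5 (37453980 to 37454836) and Pcdhb8 with 60.2 (37514292 to 37514983). The other 5 occupied genes had scores close to the calling threshold of 50. Pcdhb17 had a score of 57.9, Pcdhb13 and Pcdhb16 had 53.4 each, Pcdhb10 had 53.1 and Pcdhb20 had 51.4. Since this score is a p-value on a log scale, an unoccupied gene is one without a region that passed the threshold, and a weaker signal there cannot be seen in these lists.

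Pcdhb genes have annotated TSSs of their own, which allowed the sites to be placed against them. The centers of the 10 sites lay between 100 bp upstream (Pcdhb21) and 62 bp downstream (Pcdhb11) of the TSS, with a median position of -20.5 bp. All 10 sites covered the TSS itself. Occupied and unoccupied genes were interspersed in the second part of the cluster, without a regular order. Pcdhb10 and Pcdhb11, Pcdhb16 and Pcdhb17, and Pcdhb19 to Pcdhb21 were occupied neighbors. The unoccupied Pcdhb14, Pcdhb15 and Pcdhb18 lay 4.85, 3.91 and 4.14 kb from a site that belonged to a neighboring gene.

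In the Pcdhg cluster, the 7 sites had a median score of 63.3, and the range was the widest, from 58.5 to 340. The site over frame 19 (37925156 to 37926283) had a score of 340, which ranked 55 among the 8323 Wapal-binding sites. The site over frame 18 (37920770 to 37921867), immediately before it, had a score of 121. Frame 17 had 79.1, and frames 10, 12, 14 and 16 had scores of 62.3, 61.2, 58.5 and 63.3. Within this cluster the 3 sites with the highest scores were thus the last 3 in order. The sites over frames 16 to 19 also lay within Gm16882, a further gene annotated in the cluster. Regions of ChIP-seq carry no strand, and a site cannot be assigned to 1 of 2 overlapping genes.

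Over all 24 frame starts the median score was 64.0, against 81.4 for all Wapal-binding sites. Of the 24 scores 17 were below that median, and 3 reached 100, as did 2878 of all 8323 sites. The sites were also narrow, with widths from 513 to 1239 bp and a median of 689 bp, against a median of 812 bp for all sites.

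The position of the sites relative to the coding sequence was similar in the 3 clusters. The centers of all 24 sites were upstream of the start codon, at positions from -13 to -294 bp with a median of -152 bp. The median was -110 in Pcdha, -174.5 in Pcdhb and -215 in Pcdhg. The site over Pcdhg frame 16 reached 2 bp past the start codon, and the one over frame 17 reached furthest into the exon, 606 bp.

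**Figure D2:**
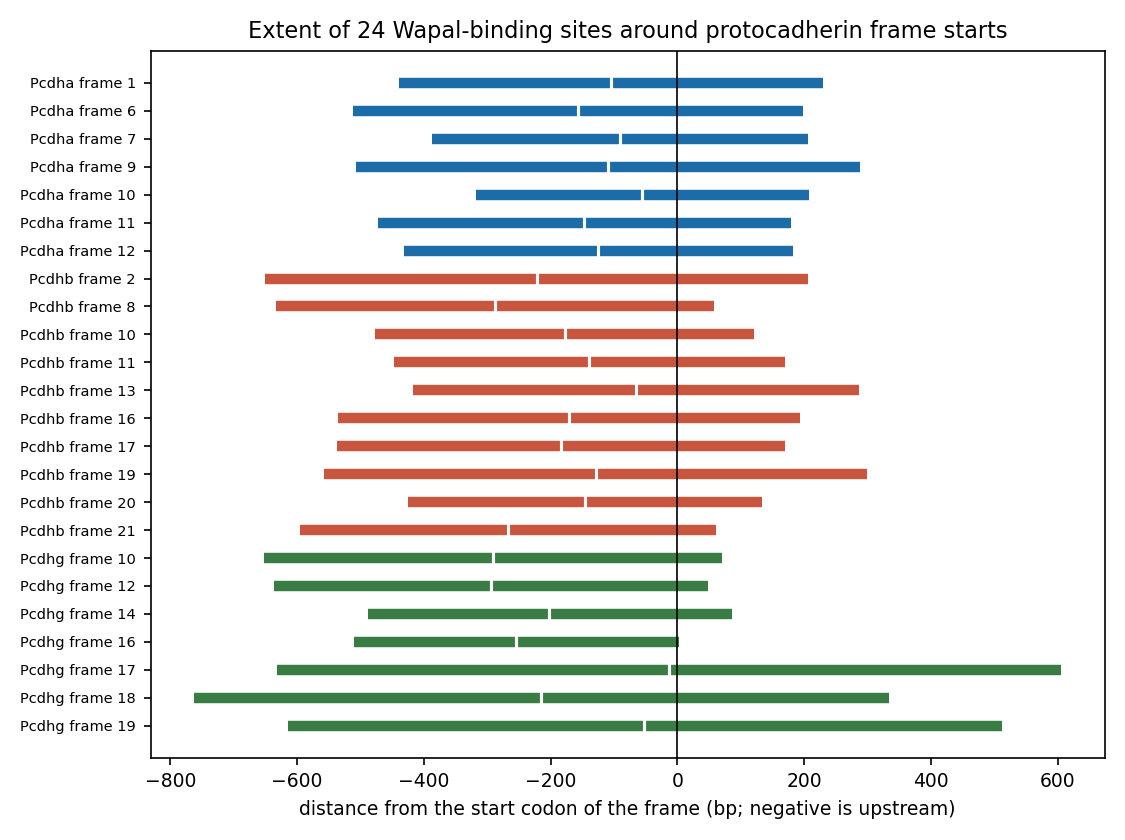
Extent of the 24 sites over protocadherin frame starts, in bp from the start codon, with Pcdha in blue, Pcdhb in red, Pcdhg in green and the center of each site as a white mark. Every bar crosses 0, and the centers lie between -294 and -13.

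The density of sites in the 911589 bp from the first Pcdha to the last Pcdhg exon was 27.4 per Mb, from 25 sites. It was 3.45 per Mb over chromosome 18 and 3.13 per Mb over all chromosomes, so the locus was 7.95 and 8.75 times as dense. The locus held 7.99% of the 313 sites of chromosome 18 in 1.00% of its length. Within the locus the density was 27.2 per Mb in Pcdha, 39.0 in Pcdhb and 38.9 in Pcdhg, counted from the first to the last frame or constant exon.

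All chromosomes were divided into 2902 windows of the length of the locus, with the grid on chromosome 18 aligned to the locus. The protocadherin window held 25 sites and the median window 3. The next windows held 15 sites (chromosome 13, at Pde4d, which encodes a cAMP phosphodiesterase), 13 (chromosome 8) and 12 (chromosomes 2 and 11). When a window of this length was slid along every chromosome outside the locus, the highest count was also 15, on chromosome 13.

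**Figure D3:**
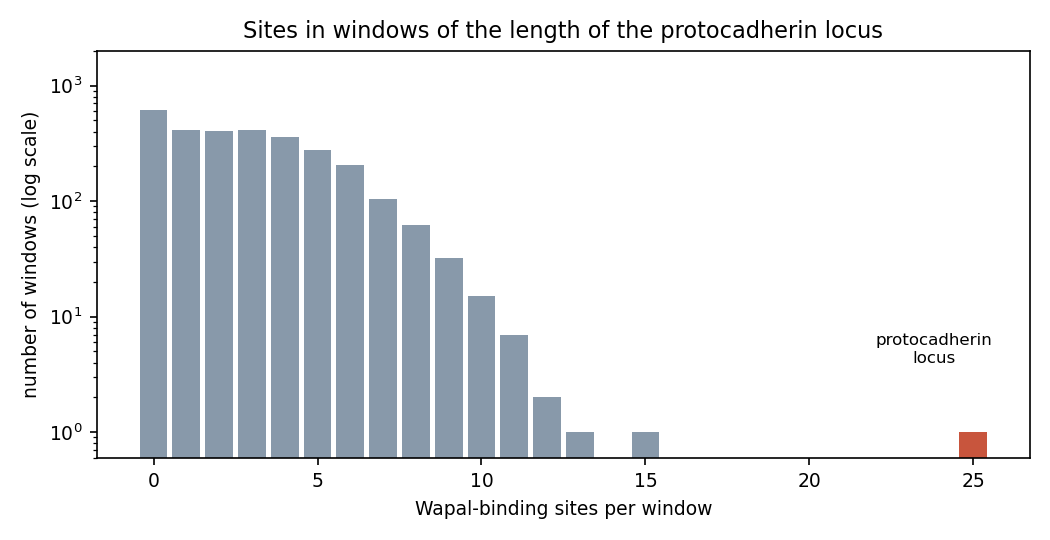
Number of windows (log scale) by the number of Wapal-binding sites they hold, for 2902 windows of the length of the protocadherin locus. The protocadherin window, in red, holds 25 sites and the next 15.

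A single site lay between the clusters. It covered 37376761 to 37378391, between the last Pcdha exon and Pcdhb1, and its nearest edge was 46.3 kb upstream of the Pcdhb1 TSS. Its score of 128 was above those of all Pcdha and Pcdhb sites, and its width of 1631 bp was above those of all 24 frame-start sites. No site lay in the 140525 bp between Pcdhb22 and the first Pcdhg frame.

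The 300 kb upstream of Pcdha held no site and 15 protein-coding genes, and the nearest site was 404 kb away. The 300 kb downstream of Pcdhg held 5 sites. Of these 4 lay in introns of Diap1, which encodes a formin that nucleates actin filaments. Their scores were 136, 91.1, 71.9 and 112 in order from Pcdhg, and the first was 9.74 kb beyond the last Pcdhg exon (38011266 to 38012486). This first site was also 0.575 kb from a TSS of Diap1, whereas the other 3 were 6.96 to 12.6 kb from one. The fifth (38173155 to 38174919, score 53.4) was 15.9 kb from a TSS of Arap3, a GTPase-activating protein. Between the fourth and the fifth were 129.3 kb with no site, which included Hdac3, a histone deacetylase that acts in corepressor complexes, Rell2 and Fchsd1.

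Most Wapal-binding sites contain the CTCF core motif, so the sites of the locus were searched for it on both strands. With at most 1 mismatch in 12 positions, 74.5% of all Wapal-binding sites held a match. Among the 24 sites over protocadherin frame starts there was none, against 6199 of the other 8299 sites (74.7%). With 2 mismatches allowed the numbers were 10 of 24 (41.7%) and 96.7%. The closest match had 2 mismatches in 10 of the frame-start sites and 3 in the other 14. The sites with 2 mismatches were 2 in Pcdha, 7 in Pcdhb (Pcdhb2, Pcdhb10, Pcdhb11, Pcdhb16, Pcdhb19, Pcdhb20 and Pcdhb21) and 1 in Pcdhg, the site over frame 19.

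**Figure D4:**
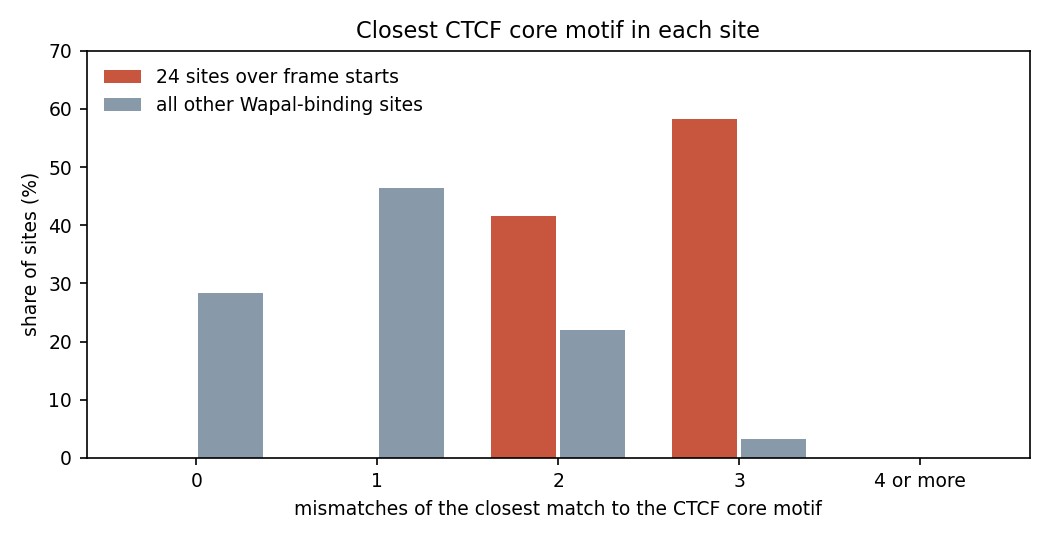
Share of sites (%) by the number of mismatches of their closest match to the CTCF core motif, for the 24 sites over protocadherin frame starts (red) and the other 8299 sites (gray). The frame-start sites lie at 2 and 3 mismatches, and 74.7% of the other sites at 0 or 1.

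The same search was made in other sites of the same kind. Of 138 other sites over an annotated coding start, 86 (62.3%) held a match with at most 1 mismatch. Of 4396 other sites with scores no higher than the upper quartile of the 24 frame-start sites (84.1), 71.7% did. Of 1695 other sites no wider than the median frame-start site, 72.7% did.

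In contrast, the site between Pcdha and Pcdhb held an exact match and a further match with 1 mismatch, both on the reverse strand. In the downstream flank, the first site in Diap1 held 2 matches with 1 mismatch and the fourth an exact match, all on the reverse strand as well. The remaining 3 downstream sites had 2 mismatches at best. Exact matches were mostly outside the sites, in the locus as over all chromosomes. The locus held 20, of which 1 was in a Wapal-binding site (5.0%), against 18.9% of 12721 exact matches over all chromosomes. With at most 1 mismatch the shares were closer, 2 of 87 matches in the locus (2.30%) against 3.33% over all chromosomes. Of the 20 exact matches in the locus, 14 were on the reverse and 6 on the forward strand, whereas all members are transcribed from the forward strand.

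The promoters themselves were searched next. No frame had a match with at most 1 mismatch in the 500 bases before its start codon, whether it had a site (24) or not (34). Over all annotated coding starts this share was 5.97%. In the window from 250 bases before to 50 after each annotated TSS, 0 of 19 member TSSs with a site and 0 of 28 without had such a match, against 4.50% of all 86846 TSSs. A match shows the letters of a motif and no binding, and the absence of these letters does not show whether CTCF was present. Other forms of CTCF-binding sequence were not searched. The study reports that most of its Wapal-binding sites overlapped CTCF ChIP-seq regions, and that overlap was not examined here at this locus.

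Protocadherin promoters are known to share a conserved element, and the 500 bases before the frames were therefore searched for the 7-base word with a CG that most frames of a cluster share. Because the word was chosen in these frames, its share among them is a description. In Pcdha the word was TGTCGCT, found on the forward strand before 11 of 14 frames and before 1.35% of all annotated coding starts (2.58% on either strand). In Pcdhb it was GGTGGCG, before 20 of 22 frames and 4.77% of all coding starts (8.75% on either strand). Of its 7 letters 6 in a row also match the CTCF core motif. In Pcdhg it was CGCTGTT, before 15 of 22 frames (16 on either strand) and 1.31% of all coding starts (2.51% on either strand). The Pcdha and Pcdhg words share at most 3 and 4 letters in a row with the CTCF core motif, on either strand. Only this form of the motif was compared, so the shared letters do not show whether a word is part of a CTCF-binding sequence. The words lay at median positions of -190, -222.5 and -233 bases from the start codon, within the span of the sites.

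The words did not separate the frames with a site from those without. In Pcdha 6 of 7 frames with a site and 5 of 7 without held the word on the forward strand. In Pcdhb the numbers were 9 of 10 and 11 of 12, and in Pcdhg 4 of 7 and 11 of 15. The frames that lacked the word of their cluster on the forward strand and also had no site were the last 2 Pcdha frames, Pcdhb1, Pcdhg frame 6 and the last 3 Pcdhg frames. On either strand, 12 of the 15 Pcdhg frames without a site held the word. Pcdha frame 10, Pcdhb16 and Pcdhg frames 14, 16 and 18 had a site but not the word.

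The frames with and without a site were compared for base composition between 700 bases before and 300 after the start codon. The median number of CG dinucleotides was 26 with a site and 28 without, and the median GC content 43.3% and 44.6%. GC content reached 49.6% among the frames with a site and 64.6% among those without. The 5 frames above this range were the last 2 of Pcdha (56.2% and 64.6%) and the last 3 of Pcdhg (57.8%, 52.9% and 52.4%).

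Because protocadherin genes resemble each other and the authors kept uniquely aligned reads, the sequence around each frame start was tested for copies. In each frame, windows of 49 bases were taken in the same stretch, and the share that occurs once in the mm9 genome was counted. The median share was 99.8% for frames with a site and 100% for frames without, and the lowest values were 77.8% and 87.8%.

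The alignment allowed mismatches, so that a near copy can also make a read ambiguous. When copies in the locus with up to 2 mismatches were also counted, the median share without a near copy was 91.8% with a site and 97.2% without. In Pcdhb the medians were 100% and 97.8%, and in Pcdha 82.4% and 82.5%. In Pcdhg they were 66.6% with a site and 97.4% without. The Pcdhg frames with the lowest shares were 10 (58.0%), 12 (66.6%), 14 (66.3%) and 16 (66.3%), all of them with a site, while frames 17 and 18 were at 100% and frame 19, with the score of 340, at 99.6%. Frames 10 and 12 were also the closest to each other in coding sequence, with 476 shared 16-base words, and frame 14 was closest to 12 and frame 16 to 14. The part of sequence likeness in the sites at these 4 frames was not tested.

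**Figure D5:**
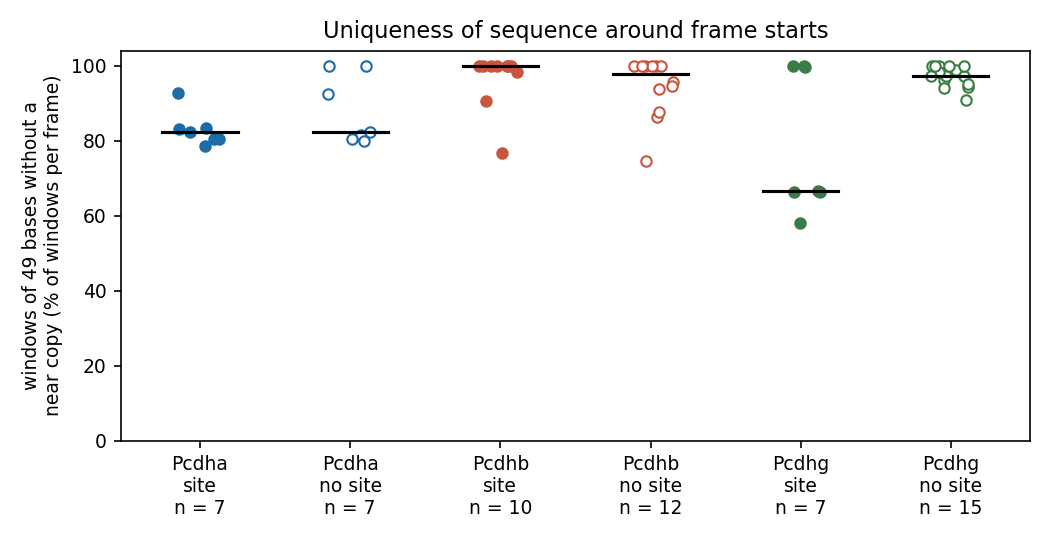
Share of 49-base windows without a near copy in the locus (%, at most 2 mismatches) around each of the 58 frame starts, by cluster, with filled points for frames with a site, open points for frames without and black lines for medians. The Pcdhg frames with a site have a median of 66.6% and those without 97.4%.

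Frames close to each other in sequence did not always share occupancy. Apart from Pcdhb5 with Pcdhb7, the pairs listed were each other's closest frames and shared 364 words or more. Pairs in which only the first frame had the other as its closest were otherwise left out. Some of those shared occupancy and others did not. Pcdha frames 7 and 8 shared 821 words of 16 bases, the most of any pair, and 7 had a site while 8 had none. Pcdhb11 and Pcdhb12 shared 775, and Pcdhb11 had a site while Pcdhb12 lay 6.49 kb from one. Pcdhb7 and Pcdhb9 shared 746, and neither had a site. Pcdhb6 and Pcdhb8 shared 653, with a site at Pcdhb8 alone of the pair. Pcdhg frames 4 and 6 shared 637, and neither had a site. Pcdhb5 shared 581 with Pcdhb7, and neither had a site. Pcdha frames 1 and 5 shared 488, with a site at frame 1 alone of the pair. Pcdhg frames 11 and 13 shared 370, and neither had a site. Pcdha frames 11 and 12 shared 485, Pcdhg frames 10 and 12 476, and Pcdhb19 and Pcdhb20 364. In these last pairs each frame had a site.

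Protocadherin genes outside the clusters were examined for comparison. Of 12 such genes 1 had a site within 2 kb of a TSS, against a share of 2.85% over all genes tested. This was Pcdh1, an epithelial and neural adhesion protein, with a site 24 bp from a TSS and a score of 69.6. The next nearest were Pcdh15, a component of the tip links of hair cells, at 6.24 kb, Pcdh8 at 33.0 kb and the endothelial Pcdh12 at 36.4 kb. The other 8 lay between 177 and 8323 kb from a site, among them Pcdh10, Pcdh19 and Pcdh11x.

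Where 2.85% of all genes tested had a site within 2 kb of a TSS, 3 of 11 genes for factors known to act on the clusters did. They were Smc3, a core cohesin subunit (score 69.9), Dnmt3b, a de novo DNA methyltransferase (49 bp, score 59.4), and Wapal itself (1.53 kb, score 160). The sites nearest to Nipbl, the cohesin loader, and to Ctcf were 6.39 and 12.6 kb away. For Rad21 and Smc1a, further cohesin subunits, the distances were 92.0 and 88.2 kb. For Stag1, Stag2, Smchd1 and Setdb1 they were 20.6, 116, 387 and 37.1 kb.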

How the data were processed

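Per the study's methods, the authors aligned reads of biotin-mediated ChIP-seq with Bowtie (mm9), retained those with a unique alignment, and used MACS against input to call regions (1.4.2 in the submitters' processing notes) at its default threshold. The deposited value of each region is the MACS score, which is not normalized between lists and was used to describe and filter regions. The rule that joined the FB Wapal clones is not given in the sources used here.

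Distances run from the nearest edge of a site to a TSS of any GENCODE M1 transcript or to a start codon. The CTCF core motif (12 positions) was searched in mm9 on both strands. The search for reading frames, the shared words and the count of near copies were added after the data were seen. The members and lists were chosen with earlier results of these data known. Named were members with a site, the first and last gene of each cluster, the nearest protein-coding gene of each site, 12 other protocadherin genes and 11 genes of known factors. Further genes in stretches without a site and frames with or without a word were named after their values were seen. C-type isoforms have no symbols of their own in the annotation, except that Pcdhgc5 names the whole cluster. Functions were tested on simulated data. Python 3.11.15 was used with pandas 2.3.3, pysam 0.24.0 and numba 0.67.0. Promoter and site sequences of this chromosome are not printed here.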

Additional observations from a re-analysis of the deposited data

How the results depend on the processing

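No paired analysis was possible because the clones were joined in 1 list, and for the same reason no replicate could be left out. When a score of 100 or more was required, the sites in the locus and its flanks fell from 30 to 6. The genes with a site within 2 kb or over the first exon fell from 12 to 2, and the frame starts with a site from 24 to 3. The density fell from 27.4 to 4.39 per Mb. The same limit reduced the whole list from 8323 to 2878 sites. Shares over all genes and coding starts, and the density over all chromosomes, were not counted at this score. Counting a site over the first exon by its center gave 6 genes. With 2 mismatches allowed, 10 of the 24 frame-start sites held a match to the CTCF core motif, against 96.7% of the other sites. Windows at 7 of 19 member TSSs with a site and at 9 of 28 without held such a match. The share over all TSSs was not counted at 2 mismatches. Within 1 kb on either side of the TSS, with 1 mismatch, 6 (31.6%) of the member TSSs with a site held a match. Among those without a site 2 (7.14%) did, against 21.5% of all TSSs. These results rest on sites of modest score, and without read counts neither the depth of a site nor the signal at an unoccupied promoter can be read. Other distances (1, 5 and 10 kb, which gave 12, 16 and 18 genes), the 5′-most TSS, the center of a site, merging, BirA regions kept, 100 kb flanks, exact motif matches, and for frame starts no distance, 2 kb or frames of 1800 to 4000 bases moved no count by more than 1.5 times. The shares over all genes at 1, 5 and 10 kb were not counted, so those counts of members have no background beside them.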
